A study of Bos taurus with 3 samples.

Results

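The genes described here encode the machinery that reads mRNA into protein: the initiation, elongation and release factors of translation and the aminoacyl-tRNA synthetases. They were chosen by symbol alone, as genes whose symbol begins with EIF1 to EIF6, EEF1 or EEF2, or is ETF1, GSPT1, GSPT2, EPRS or a 1-letter amino acid code followed by ARS or ARS2. Of 9154 genes with a tag in at least 1 library, 75 met this rule. They comprised 30 initiation factors, 6 elongation factors, 2 release factors, 16 cytosolic and 13 mitochondrial synthetases, 5 regulators of initiation and 3 further genes whose symbols meet the rule although their known roles lie elsewhere.

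Mammary tissue was taken by biopsy from 18 Holstein cows in their second parity, 6 of them at each time point, to follow the gland from the dry period into lactation. The time points were −35 d and −7 d before parturition and +3 d after it, and the cows of a time point were pooled into 1 library. No treatment was given by the labels, and the study's account places −35 d in the dry gland, −7 d in stage I of lactogenesis and +3 d in stage II with colostrum secretion. Because each pool was sequenced once, no spread among cows could be measured, every difference below lacks a replicate check, and the tests compare libraries and not conditions.

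In translation, the factor eIF2 brings the initiator tRNA to the small ribosomal subunit, eIF3 holds the initiation complex together, and eIF4F binds the cap of the mRNA and unwinds it. Elongation factors then carry the ribosome along the message, release factors end the chain at a stop codon, and synthetases load each tRNA with its amino acid. In the mammary gland this machinery serves the secretion of milk proteins, and both the phosphorylation of eIF2 and the sequestration of the cap-binding protein eIF4E are known points of control by nutrients and hormones. Mitochondria have synthetases of their own, most of them encoded by genes whose symbol ends in 2.

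The libraries were made by digital gene expression (DGE), which counts short tags cut from transcripts at CATG sites. Clean tags numbered 5914422, 5593237 and 5845821 at −35 d, −7 d and +3 d. A level in TPM is the number of tags of a gene per 1000000 clean tags. TPM is not divided by gene length. A transcript with several CATG sites can give more than 1 tag, so levels set side by side for different genes compare their tags and not their numbers of transcripts, and ratios of genes are read for how they differ between libraries. The 75 genes took 36953, 36451 and 26031 of them in the same order, which is 0.625%, 0.652% and 0.445%, with a median of 182, 198 and 141 tags per gene. For a gene with no tag, up to 3 tags remain possible by counting error, which is 0.507, 0.536 and 0.513 TPM in the order of time, and no fold is given for a gene with 3 tags or fewer in either library. In 70 of the 75 genes every library had more than 3 tags, and the other 5 were EEF1A2, EIF2AK4, EIF2C3, EIF4G3 and IARS2.

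Libraries were compared with the Audic-Claverie exact test of tag counts, and a gene was called at a false discovery rate (FDR) of at most 0.001 over all genes together with a log2 ratio of at least 1 in size. The words rose and fell are used for called genes only. Confidence intervals (CI) are 95% intervals, exact for ratios and by Wilson's method for summed levels. They cover counting error only, since PCR copies of a tag are not separate molecules. The TPM scale is itself moved by the milk genes: the caseins and PAEP, 5 genes that each took over 1% of a library, held 0.348%, 4.13% and 22.6% of the clean tags in the order of time. The median log2 ratio of all genes was −0.22 in stage I (−7 d against −35 d), −0.30 in stage II (+3 d against −7 d) and −0.56 over the whole interval (+3 d against −35 d). Scaling by edgeR's TMM method, which centres the bulk of the genes, added 0.19, 0.31 and 0.50 to these log2 ratios. Leaving the 5 milk genes out of the totals added less in stage I (0.06) and over the whole interval (0.36), and 0.31 in stage II. Where TMM scaling decided a call this is stated, in most cases with both ratios.

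Most of the machinery was listed in all stages and few genes passed the thresholds before parturition. In stage I, only SARS2 rose, and EIF2B2, EIF4E3 and EIF4H fell (3 of 75, 4.0%). Over all genes, 2.62% were called higher and 6.45% lower in that comparison. In stage II, 12 of 74 genes (16.2%) fell and none rose, beside 10.4% lower and 3.12% higher over all genes. Over the whole interval, 18 of 74 (24.3%) fell and none rose, beside 16.3% lower and 2.33% higher over all genes. Among genes averaging 5 TPM or more, the shares called lower were 7.95%, 14.2% and 21.7%. In all, 24 of the 75 genes (32%) were called in at least 1 comparison, beside 27.2% of all genes, and 51 in none.

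The number of calls and the balance of higher and lower genes depended on the scale. After TMM scaling, 3 genes were higher (EIF4EBP1, NARS and SARS2) and 1 lower (EIF4H) in stage I, beside 4.22% higher and 3.9% lower over all genes. In stage II, 4 genes were lower (EEF1E1, NARS2, QARS and YARS) and none higher, where all genes gave 4.9% lower and 5.87% higher. Over the whole interval, 4 were lower (EIF2S3, EIF4A3, HARS and NARS2) and 3 higher (EIF3G, EIF3I and NARS), beside 4.94% lower and 6.23% higher. When pools were taken to vary with a coefficient of variation of 0.2 in the exact test of edgeR, a single call was left among the 75 genes, the lower level of NARS2 at +3 d compared with −35 d. No share over all genes is given for that setting.

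**Figure D1:**
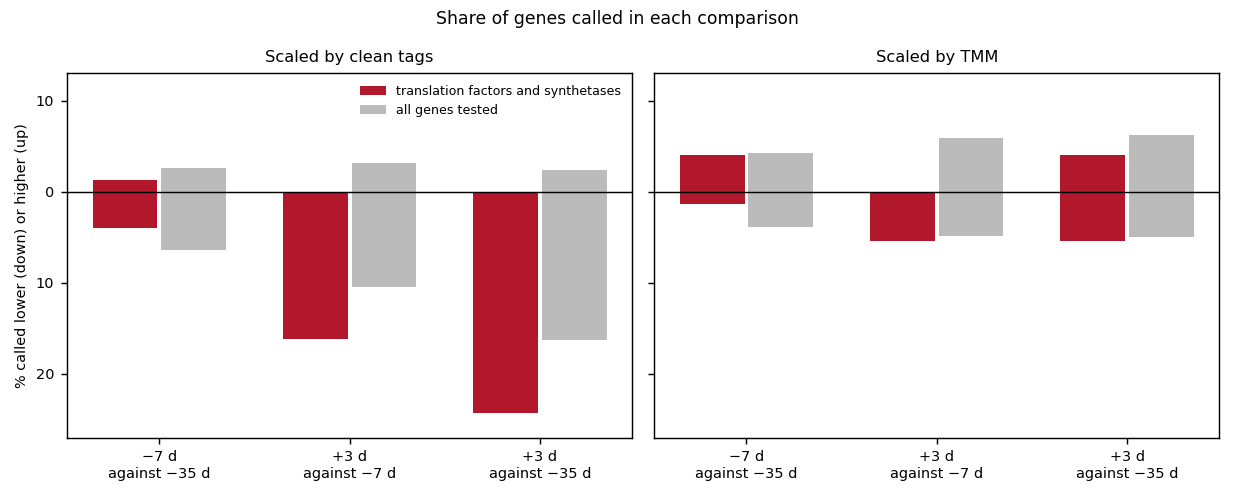
Percent of the genes tested that were called higher (upward bars) and lower (downward bars) in each comparison, for the translation genes and for all genes, on the clean tag scale and after TMM scaling. The downward bars of the translation genes reach 24.3% at +3 d against −35 d on the clean tag scale, where all genes reach 16.3%.

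The median log2 ratio of the 75 genes was −0.16 in stage I, −0.58 in stage II and −0.66 over the whole interval. With genes of 3 tags or fewer set to 3 tags it was −0.05, −0.54 and −0.62, and after TMM scaling it was 0.03, −0.27 and −0.16. On the clean tag scale levels were lowest at +3 d in 48 genes. By the order of the 3 levels on that scale, 31 genes declined through both stages, 31 were highest at −7 d, 9 were lowest at −7 d and 3 increased through both stages. Over the whole interval, 56 of 74 genes had a log2 ratio below 0 by clean tags and 42 after TMM scaling. Among all 8988 genes tested these counts were 6576 and 4732. The summed level of the 75 genes was 6248 TPM in the −35 d library, 6517 at −7 d and 4453 at +3 d. Per 1000000 tags outside the 5 milk genes, the sums were 6270, 6798 and 5754, so the decrease of 31.7% from −7 d to +3 d became 15.4% on that scale. In pooled biopsies of whole tissue, fewer cells of a type and less RNA per cell cannot be told apart.

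**Figure D2:**
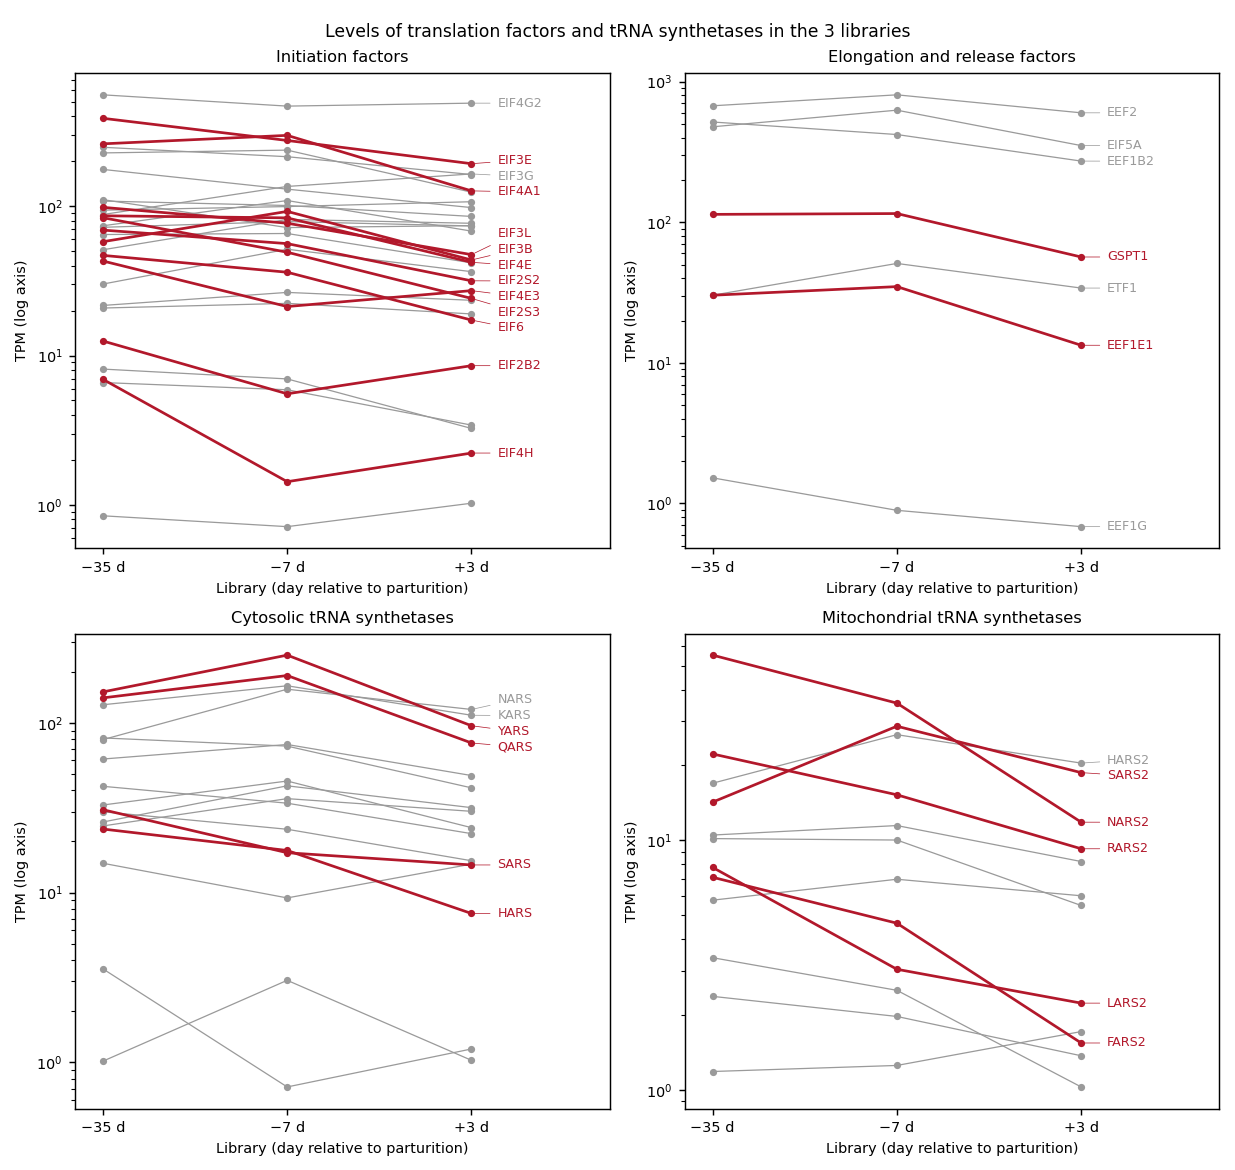
Level in TPM (log axis) of each gene at −35 d, −7 d and +3 d, 1 line per gene, by role, for genes with a tag in all 3 libraries; genes called in at least 1 comparison are in red. Regulators and the 3 genes of other roles are not drawn. In the panel of mitochondrial synthetases NARS2 drops from 55.1 to 11.8 TPM, and in the panel of elongation factors EEF2, EIF5A and EEF1B2 stay above 200 TPM.

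Among the initiation factors, the subunits of eIF2 and of eIF3 differed in their course, while both measured parts of eIF4F were lower at +3 d. The 30 genes summed to 3112, 2901 and 2215 TPM in the order of time, and their median log2 ratio was −0.18 in stage I, −0.40 in stage II and −0.59 over the whole interval (0.01, −0.10 and −0.09 after TMM scaling). On the clean tag scale 3 fell in stage I (10%), 4 in stage II (13.3%) and 8 over the whole interval (26.7%), and none rose. Over all genes 6.45%, 10.4% and 16.3% fell in the same comparisons, and among genes averaging 5 TPM or more 7.95%, 14.2% and 21.7%.

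Within eIF2, the factor of 3 subunits that carries the initiator tRNA, levels diverged. EIF2S3, its gamma subunit, which binds GTP and the tRNA, had 83.7 TPM at −35 d, 49.2 at −7 d and 24.1 at +3 d. It fell in stage II (log2 ratio −1.03, CI −1.33 to −0.73) and over the whole interval (−1.79, CI −2.08 to −1.52, FDR 8.4e-45 by the Audic-Claverie exact test), and the latter call was also made after TMM scaling (−1.30). The stage II call of EIF2S3 was not made after TMM scaling (−0.72). EIF2S2, the beta subunit, had 69.2, 56.1 and 31.6 TPM and fell over the whole interval (−1.13), but not after TMM scaling (−0.63). EIF2S1, the alpha subunit on which the eIF2 kinases act, went another way, with 30.1, 51.5 and 36.4 TPM and no call in any comparison. The ratio of EIF2S1 to EIF2S3 tags within a library, which no scaling can alter, was 0.36, 1.05 and 1.51 in the order of time, a 4.2-fold difference from first to last (CI 3.17 to 5.57). This ratio and the other ratios of factors below were chosen after their values were seen and are given without a test.

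The guanine nucleotide exchange factor eIF2B, which recharges eIF2 with GTP, had 4 of its subunits in the tables, with a summed level of 48.9, 44.9 and 38.7 TPM. Its beta subunit EIF2B2 had 12.5 TPM in the −35 d library, 5.54 at −7 d and 8.55 at +3 d and fell in stage I (−1.17, CI −1.83 to −0.55), a call not made after TMM scaling (−0.98). The other subunits, EIF2B1, EIF2B3 and EIF2B4, were not called, with log2 ratios over the whole interval of −1.32, −0.95 and 0.11.

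The scaffold eIF3 was represented by 10 genes, EIF3CL (a near copy of subunit C, with which its tags may be shared) among them, and summed to 1272 TPM at −35 d, 1192 at −7 d and 984 at +3 d. Outside the milk genes the sums were 1276, 1243 and 1272 per 1000000, so the total of the complex at +3 d was close to that at −35 d on that scale. Log2 ratios of the single genes spanned −1.05 to 0.90 over the whole interval, −0.62 to 0.68 in stage I and −1.08 to 0.28 in stage II.

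At the low end was EIF3E, the most abundant eIF3 gene at −35 d. It had 388, 275 and 192 TPM and fell over the whole interval (−1.01, CI −1.11 to −0.91). EIF3L, with 98.2, 76.9 and 47.4 TPM, fell as well (−1.05). EIF3B, a core subunit that binds RNA, was highest at −7 d, with 57.8, 92.3 and 43.6 TPM, and fell in stage II (−1.08, CI −1.30 to −0.86). None of these 3 was called after TMM scaling (−0.51, −0.55 and −0.77).

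At the high end was EIF3G, a subunit that also takes part in scanning, with 87.9 TPM at −35 d, 136 at −7 d and 164 at +3 d. Its log2 ratio over the whole interval was 0.90 (CI 0.75 to 1.06), under the threshold on the clean tag scale and called higher after TMM scaling at 1.40. EIF3I, a subunit with WD repeats, had 51.1, 81.5 and 76.8 TPM and was called only after TMM scaling (1.09, against 0.59 by clean tags). EIF3G and EIF3I are described because of their calls after TMM scaling. The ratio of EIF3G to EIF3E tags was 0.23 in the −35 d library, 0.49 at −7 d and 0.85 at +3 d, which is 3.77-fold higher at the end (CI 3.30 to 4.29). EIF3D, EIF3H, EIF3J, EIF3K and EIF3CL were not called, and EIF3D was nearly level at 72.2, 78.8 and 73.7 TPM.

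The cap-binding complex eIF4F was lower after parturition in both of its well-measured parts. EIF4A1, the helicase that unwinds the 5′ end of the mRNA, had 261 TPM at −35 d, 298 at −7 d and 127 at +3 d. It fell in stage II (−1.23, CI −1.36 to −1.11) and over the whole interval (−1.05), and TMM scaling left −0.93 and −0.55, without a call. EIF4E, which binds the cap, had 86.2, 83.5 and 42.1 TPM and fell over the whole interval (−1.04, CI −1.26 to −0.81; −0.54 after TMM scaling, not called). Its stage II ratio of −0.99 lay just inside the threshold. EIF4G3, a scaffold of the complex, had no more than 0.342 TPM in any library. EIF4G1, the main scaffold gene, would meet the symbol rule but was not listed under that symbol in any library.

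The accessory genes of eIF4 included the most abundant initiation gene of all. EIF4G2, a relative of the eIF4G scaffold that lacks the site for eIF4E and serves translation independent of it, had 556 TPM at −35 d, 468 at −7 d and 489 at +3 d, without a call. There were 2.13 EIF4G2 tags for each EIF4A1 tag at −35 d, 1.57 at −7 d and 3.87 at +3 d, so the ratio was 2.46-fold higher after parturition than at −7 d (CI 2.22 to 2.73). EIF4E3, a cap-binding relative of EIF4E, had 42.9, 21.3 and 27.2 TPM and fell in stage I (−1.01, CI −1.34 to −0.69; −0.82 after TMM scaling, not called). EIF4H, a helper of the helicase, fell in stage I from 6.93 to 1.43 TPM (−2.28, CI −3.58 to −1.17), a call kept after TMM scaling (−2.09). At +3 d it stood at 2.22 TPM, lower than at −35 d (−1.64), and TMM scaling removed this second call (−1.14).

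Of the remaining initiation factors, EIF6 was called. It keeps the large ribosomal subunit from joining the small one too early and is needed to make that subunit. It had 46.8 TPM in the −35 d library, 36.1 at −7 d and 17.3 at +3 d. EIF6 fell in stage II (−1.06) and over the whole interval (−1.44, CI −1.78 to −1.10). Neither call was made after TMM scaling, which left −0.94 over the whole interval. The factors of start codon selection were abundant and not called: EIF1 had 176, 130 and 97.8 TPM and EIF1AX 227, 237 and 124 TPM.

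**Figure D3:**
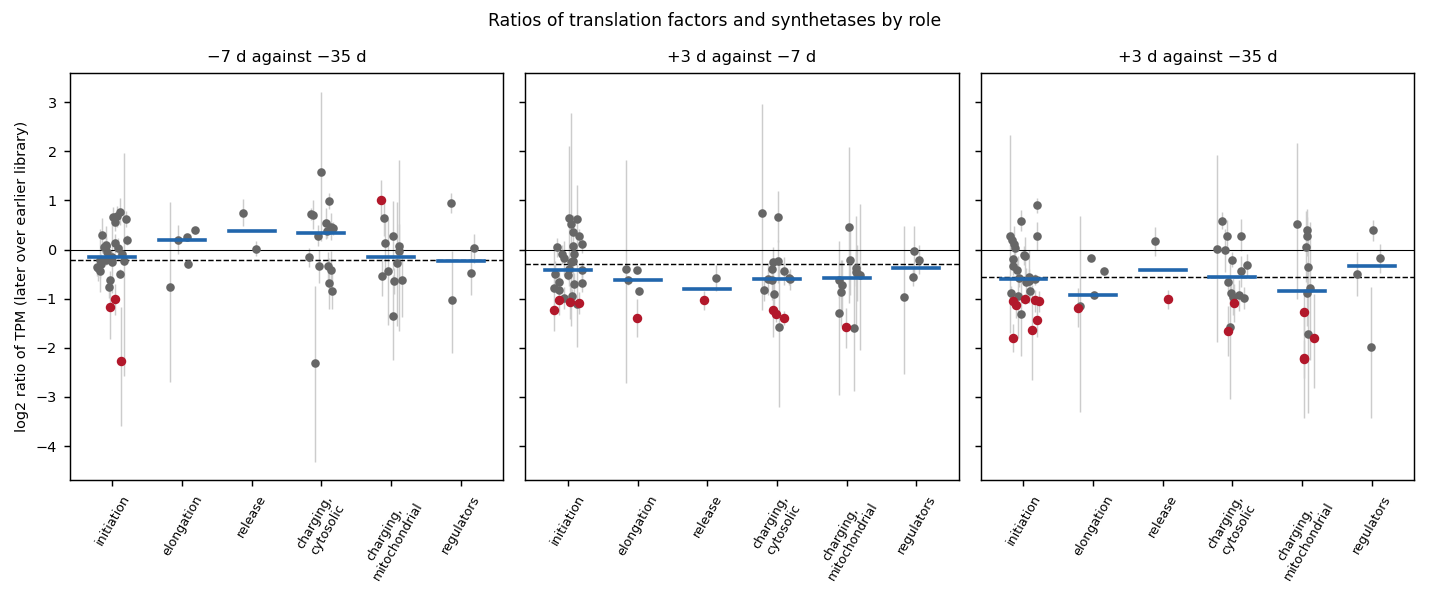
Log2 ratio of each gene with more than 3 tags in both libraries (points), by role, for the 3 comparisons on the clean tag scale, with called genes in red, 95% intervals in grey and the median of all genes dashed. Blue bars mark the median of the drawn points, which differs slightly from medians over all genes of a role, and points below −1 are mostly found in the comparisons with the +3 d library.

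None of the 5 regulators of initiation was called by clean tags. Over all genes 6.45%, 10.4% and 16.3% were called lower in stage I, stage II and the whole interval. Those called higher were 2.62%, 3.12% and 2.33%. EIF4EBP1 encodes a repressor that, until mTORC1 phosphorylates it, binds eIF4E in place of the eIF4G scaffold and so blocks the assembly of eIF4F. It had 53.9 TPM at −35 d, 104 at −7 d and 70.6 at +3 d. Its stage I ratio was 0.95 (CI 0.75 to 1.15) by clean tags, just under the threshold, and 1.14 after TMM scaling, where it was called higher, which is why it is named here. The ratio of repressor to target, EIF4EBP1 to EIF4E tags, was 0.63 in the −35 d library, 1.25 at −7 d and 1.68 at +3 d, or 2.68-fold higher at the end than at the beginning (CI 2.16 to 3.33). Tags measure RNA and not the phosphorylation that controls this repressor.

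The 4 eIF2 kinases answer to different stresses, and none was called. EIF2AK1, the kinase that senses heme, was nearly level at 34.3, 34.9 and 30.3 TPM. EIF2AK3, the kinase of the endoplasmic reticulum, had 17.1, 12.3 and 12.1 TPM. EIF2AK2, which senses double-stranded RNA, had 4.73, 2.32 and 1.2 TPM, and EIF2AK4, which senses uncharged tRNA, was listed only at −35 d at 0.338 TPM, below the limit that a count of 0 allows.

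The elongation factors included the most abundant of these genes, EEF2. The only call among the 6 was EEF1E1, which is placed here by its name, and this is 16.7% of those tested in stage II and 20% over the whole interval, beside 10.4% and 16.3% of all genes. Their sum was 1699, 1890 and 1238 TPM, and outside the milk genes 1705, 1971 and 1599 per 1000000. EEF2, the translocase that moves the ribosome by a codon, had 673, 806 and 600 TPM and was not called. EIF5A, named as an initiation factor but known to help the ribosome past stalling sequences, had 477, 627 and 351 TPM, with a stage II ratio of −0.84 (CI −0.92 to −0.76) and no call. EEF1B2, the exchange factor that recharges eEF1A, had 517, 421 and 272 TPM and a log2 ratio of −0.92 over the whole interval (CI −1.01 to −0.84), also without a call. All 3 intervals of EEF1B2 excluded 0 by counting error, which is small at these depths, and none reached the 2-fold limit in its estimate.

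EEF1E1 is known as an accessory protein of the multisynthetase complex and not as a factor of elongation itself. It had 30.3 TPM at −35 d, 34.9 at −7 d and 13.3 at +3 d. It fell in stage II (−1.39, CI −1.78 to −1.0), a call kept after TMM scaling (−1.08), and over the whole interval (−1.18; −0.68 after TMM scaling, not called). EEF1G was barely measured at 1.52, 0.894 and 0.684 TPM, and EEF1A2 was listed only at −7 d, at 0.358 TPM. EEF1A1, the main eEF1A gene, would meet the symbol rule but was not listed under that symbol in any library, so the sums lack it.

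Termination needs 2 partners, and they diverged. GSPT1, the GTPase eRF3 that helps release the chain, had 114, 115 and 56.6 TPM and fell in stage II (−1.03, CI −1.22 to −0.83) and over the whole interval (−1.01). Neither call was made after TMM scaling (−0.72 and −0.51). ETF1, which encodes eRF1 and reads the stop codon, had 30.3, 51 and 34 TPM without a call. The ratio of ETF1 to GSPT1 tags was 0.27, 0.44 and 0.60 in the order of time, 2.26-fold higher at +3 d than at −35 d (CI 1.76 to 2.90).

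Cytosolic synthetases were highest at −7 d as a group. Their sum was 872 TPM at −35 d (CI 849 to 896), 1140 at −7 d (CI 1113 to 1169) and 656 at +3 d (CI 635 to 677), and outside the milk genes it was 875, 1189 and 847 per 1000000. The median log2 ratio of the 16 genes was 0.33 in stage I, −0.60 in stage II and −0.55 over the whole interval (0.52, −0.29 and −0.06 after TMM scaling). By level alone, 9 of the 16 were highest at −7 d. None rose, 3 fell in stage II (18.8%, beside 10.4% of all genes) and 2 over the whole interval (12.5%, beside 16.3% of all genes).

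The tyrosine and glutamine enzymes had the most tags of the group at −35 d and −7 d, and NARS at +3 d. YARS had 152 TPM in the −35 d library, 251 at −7 d and 96.1 at +3 d and fell in stage II (−1.38, CI −1.53 to −1.24, FDR 4.7e-89 by the Audic-Claverie exact test). QARS had 140, 190 and 76.1 TPM and fell in stage II (−1.32, CI −1.48 to −1.16). Both calls were also made after TMM scaling, at −1.07 and −1.01. In stage I, YARS had a log2 ratio of 0.72 and QARS of 0.44, neither of them called.

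The asparagine enzyme NARS did not share this course. It had 79.6 TPM in the −35 d library, 158 at −7 d and 120 at +3 d, and its stage I ratio of 0.99 (CI 0.82 to 1.15) lay just below the threshold, while after TMM scaling it was called higher in stage I (1.18) and over the whole interval (1.09). NARS is named for these calls. There were 1.91 YARS tags for each NARS tag at −35 d, 1.59 at −7 d and 0.80 at +3 d. KARS, the lysine enzyme, which also serves mitochondria, had 128, 165 and 111 TPM without a call.

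HARS and SARS were both lower at +3 d than at −35 d. HARS, the histidine enzyme, had 23.7, 17.7 and 7.53 TPM and fell in stage II (−1.23, CI −1.78 to −0.71) and over the whole interval (−1.65, CI −2.18 to −1.15). TMM scaling kept the call over the whole interval (−1.16) and removed that of stage II. SARS, the serine enzyme, had 30.8, 17.2 and 14.5 TPM and fell over the whole interval (−1.08; −0.58 after TMM scaling, not called), with ratios of −0.84 in stage I and −0.24 in stage II. The other cytosolic synthetases, AARS, CARS, DARS, GARS, IARS, LARS, MARS, RARS, TARS and VARS, were not called. RARS came nearest to the threshold among those with over 5 TPM, with 81.5, 72.9 and 41.4 TPM and a ratio of −0.98 over the whole interval.

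Mitochondrial synthetases had fewer tags, and their course differed from gene to gene. Their sum was 157, 148 and 87.6 TPM, and outside the milk genes 158, 154 and 113 per 1000000. The median log2 ratio of the 13 genes was −0.27 in stage I, −0.62 in stage II and −0.89 over the whole interval (−0.08, −0.31 and −0.39 after TMM scaling). Restricted to genes averaging 5 TPM or more, the stage I median was 0.13 and that of the whole interval −0.35. By clean tags 1 of the 13 rose in stage I (7.69%), beside 2.62% of all genes. Stage II had 1 lower (7.69%), beside 10.4%. Over the whole interval 4 fell (30.8%), beside 16.3% of all genes and 21.7% of those averaging 5 TPM or more. After TMM scaling 1 was lower over the whole interval (7.69%), beside 4.94% of all genes.

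NARS2, the mitochondrial asparagine enzyme, had 55.1 TPM in the −35 d library, 35.4 at −7 d and 11.8 at +3 d, the steepest decrease among these 13 genes with over 10 TPM at −35 d. It fell in stage II (−1.58, CI −2.00 to −1.18) and over the whole interval (−2.22, CI −2.62 to −1.84, FDR 3.7e-39 by the Audic-Claverie exact test), and both calls were kept after TMM scaling (−1.28 and −1.73). Over the whole interval it fell 4.67-fold by clean tags. FARS2, LARS2 and RARS2, for phenylalanine, leucine and arginine, fell over the whole interval as well, by −2.21, −1.81 and −1.26 on the log2 scale, from 7.1 to 1.54, from 7.78 to 2.22 and from 22.1 to 9.24 TPM. None of these 3 was called after TMM scaling (−1.71, −1.31 and −0.76).

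SARS2 and HARS2 were higher at −7 d than in the dry gland. SARS2, the mitochondrial serine enzyme, had 14.2, 28.6 and 18.6 TPM and rose in stage I (1.01, CI 0.62 to 1.41; 1.20 after TMM scaling, also called). HARS2 had 16.9, 26.5 and 20.4 TPM, with a stage I ratio of 0.65 and no call. CARS2, MARS2, TARS2, WARS2 and YARS2 were not called, and IARS2 had no tag at +3 d, after 5 tags at −35 d and 3 at −7 d.

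Where the cytosolic and the mitochondrial enzyme for an amino acid were both listed, the ratio of their tags was taken within each library, so that scaling cannot alter it. This could be done for 11 pairs, of which 10 had enough tags for an interval. Over the whole interval the ratio of 2 pairs was higher and of 2 lower with an interval that excluded 1, and the other 6 included it. NARS to NARS2 went from 1.44 at −35 d to 4.46 at −7 d and 10.2 at +3 d, a 7.03-fold difference (CI 5.26 to 9.48). LARS to LARS2 went from 4.22 to 14.9 and 10.8 (2.57-fold, CI 1.30 to 5.38).

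The histidine and serine pairs went in the opposite direction. HARS to HARS2 was 1.40 in the −35 d library, 0.67 at −7 d and 0.37 at +3 d, 0.26 times its first value (CI 0.17 to 0.41). SARS to SARS2 was 2.17, 0.60 and 0.78, and the last was 0.36 times the first (CI 0.24 to 0.54). For these amino acids the mitochondrial enzyme had more tags than the cytosolic one in both later libraries. YARS to YARS2 was 26.5, 35.9 and 16.1, with a stage II difference of 0.45 times (CI 0.27 to 0.73), and its interval over the whole time included 1.

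**Figure D4:**
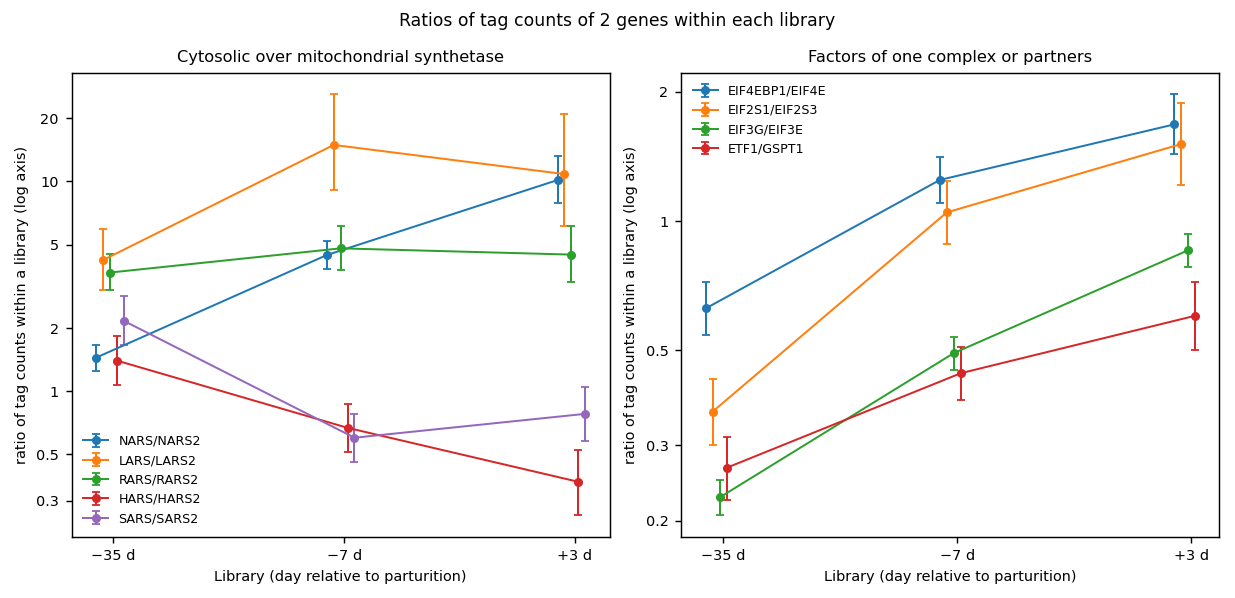
Ratio of the tag counts of a pair of genes within each library (log axis), for 5 of the pairs of cytosolic over mitochondrial synthetases (left) and for factors of a complex or partners (right). Error bars are 95% exact intervals for counting error. NARS/NARS2 climbs from 1.44 to 10.2, HARS/HARS2 drops from 1.40 to 0.37, and the 4 ratios on the right increase through both steps.

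The 3 genes of other roles met the symbol rule only. EIF4A3, the helicase of the exon junction complex that marks spliced mRNA, had 140, 107 and 47 TPM and fell in stage II (−1.18) and over the whole interval (−1.57, CI −1.77 to −1.37). TMM scaling kept the call over the whole interval (−1.07) and removed that of stage II. EIF1AD, which resembles eIF1A, had 12.2, 10.7 and 4.11 TPM and fell in stage II (−1.39) and over the whole interval (−1.57). TMM scaling removed both calls, although the ratios were −1.08 and −1.07. EIF2C3, an older symbol of an Argonaute gene, had no more than 0.676 TPM.

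Partners of this machinery with other symbols were followed in 6 lists, which were chosen with earlier results of these data known. Of the 11 listed genes of synthetase partners, among them 2 accessions of AARSD1, FARSA, the catalytic subunit of the cytosolic phenylalanine enzyme, rose in stage I from 15.6 to 36.7 TPM (1.24) and stood at 19.5 TPM at +3 d, and TARSL2, a relative of the threonine enzyme, fell in stage I (−1.57). Each is 9.09% of the 11, beside 2.62% of all genes called higher and 6.45% lower. None of the 11 was called in the other comparisons by clean tags. After TMM scaling FARSA was still called and TARSL2 was not, while TARSL2 was higher in stage II (1.76). The AARSD1 accession with fewer tags (15, 26 and 33) was also called higher over the whole interval (1.65), whereas the other (164, 149 and 103 tags) had a ratio of −0.16 and no call. Of 7 listed initiation partners, 2 fell in stage II (28.6%, beside 10.4% of all genes) and 4 over the whole interval (57.1%, beside 16.3%), and none rose. PABPC1, the protein that coats the poly(A) tail, had 1283, 1017 and 519 TPM and fell over the whole interval (−1.30). PDCD4, an inhibitor of the eIF4A helicase, had 382, 555 and 181 TPM and fell in stage II (−1.62) and over the whole interval (−1.08).

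MCTS1, a factor of reinitiation, and ABCE1, which recycles ribosomes, were the other calls of that list, at −1.45 and −1.04 over the whole interval. After TMM scaling the stage II calls of PDCD4 and MCTS1 were kept (−1.31 and −1.05) and none of the 4 calls over the whole interval. The whole-interval ratios of PABPC1, PDCD4, MCTS1 and ABCE1 were then −0.81, −0.58, −0.95 and −0.55. Among elongation and rescue partners, DPH5 fell in stage II (−1.04) and DPH2 over the whole interval (−2.21), both of them enzymes that make the diphthamide of eEF2 and neither of them called after TMM scaling, and the other 7 of 9 were not called. These are 12.5% of the genes tested in stage II and 11.1% over the whole interval, beside 10.4% and 16.3% of all genes. None of 9 mitochondrial translation factors was called in any comparison. Over all genes 6.45%, 10.4% and 16.3% were called lower and 2.62%, 3.12% and 2.33% higher, so few calls would be made among 9 genes at those shares. Some of the 9 also had few tags, such as MTRF1 with 23, 9 and 5.

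In the amino acid response list 3 genes were called, 2 of them of serine synthesis. The share called lower was 16.7% in stage II and 18.2% over the whole interval, beside 10.4% and 16.3% of all genes. The share called higher was 9.09% in stage I and 8.33% in stage II, beside 2.62% and 3.12% of all genes. PHGDH, the first enzyme of that pathway, had 19.1 TPM at −35 d, 44 at −7 d and 4.79 at +3 d. It rose in stage I (1.20) and fell in stage II (−3.20), and both calls were kept after TMM scaling (1.39 and −2.89). It was also lower at +3 d than at −35 d (−2.00; −1.50 after TMM scaling, still called). PSAT1, a later enzyme of the pathway, had 16.6, 24.5 and 5.99 TPM and fell in stage II (−2.03) and over the whole interval (−1.47; −0.97 after TMM scaling, not called). ATF3, a stress-induced transcription factor, rose in stage II from 3.75 to 16.4 TPM (2.13), a call kept after TMM scaling (2.44), and over the whole interval it was called higher only after TMM scaling (1.37, against 0.87 by clean tags). The other 9 of the 12 listed genes were not called. Of 21 genes chosen for the mTORC1 pathway, which carries amino acid and insulin signals to eIF4E and the ribosome, 8 were listed. They were not split into activators and inhibitors of the pathway. RHEB, DDIT4 and RRAGB fell over the whole interval, each at −1.07, and RRAGB also in stage II (−1.03). RPS6KB1 fell over the whole interval from 27 to 3 tags, too few for a ratio, and none of the 8 rose. These 4 of 8 stand beside 16.3% of all genes called lower. None of these was called after TMM scaling.

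The labelled tissue was checked against markers. Of the luminal epithelium list, 4 of 6 genes were listed and none of them was at 0. They summed to 1074 TPM at −35 d, 805 at −7 d and 532 at +3 d, with EPCAM, an adhesion protein of epithelia, the most abundant at −35 d (498, 293 and 210 TPM). ELF5 was highest at −7 d (271, 353 and 155 TPM), whereas KRT8 and CDH1 were lowest there. All 5 milk protein genes were listed and rose in both stages, and they summed to 2731, 27708 and 174139 TPM, so the libraries carried mammary epithelium at each time point.

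Markers of other cells also moved between the libraries. Fibroblast genes (5 of 6 listed) summed to 7618, 5728 and 8677 TPM, with COL3A1 the most abundant at −35 d. Myoepithelial and smooth muscle genes (5 of 5) summed to 768, 413 and 742 TPM, led by TAGLN at −35 d. TAGLN (219, 109 and 292 TPM) and MYH11 (145, 121 and 177 TPM) were higher at +3 d than at −35 d. ACTA2 (185, 83.5 and 160 TPM), KRT5 (160, 41.1 and 62.1 TPM) and KRT14 (59.7, 57.9 and 51.3 TPM) were lower. Adipocyte genes (4 of 4) summed to 183, 110 and 265 TPM, mostly from FABP4 (153, 91.4 and 244 TPM). PLIN1 (23.8, 11.3 and 16.1 TPM) and ADIPOQ (5.07, 4.83 and 2.74 TPM) were lower at +3 d than at −35 d. LEP was higher (1.18, 2.86 and 2.05 TPM). All 3 sums were lowest at −7 d, when the summed cytosolic synthetases were highest.

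Immune and endothelial markers were followed in the same way. Macrophage genes (6 of 6) summed to 219, 153 and 260 TPM, led by C1QA at −35 d. C1QA (98.9, 94.2 and 126 TPM), CSF1R (52.1, 22.5 and 54.4 TPM), CD163 (7.78, 1.97 and 19.8 TPM) and CD14 (2.87, 4.29 and 19.7 TPM) ended above their −35 d level. AIF1 (51.6, 28.8 and 38.1 TPM) and CD68 (5.92, 0.894 and 2.05 TPM) ended below it. T cell genes (4 of 4) summed to 124, 85.6 and 74.8 TPM, led by CD3E, and B and plasma cell genes (2 of 5) to 294, 157 and 170 TPM, led by IGJ. Endothelial genes (3 of 4) summed to 25.5, 16.8 and 16.8 TPM, led by KDR at −35 d. KDR declined through both stages (16.2, 11.4 and 7.36 TPM), whereas PECAM1 (8.12, 5.01 and 8.38 TPM) and CDH5 (1.18, 0.358 and 1.03 TPM) were lowest at −7 d. Of the proliferation genes, CCNB1 and CDK1 (2 of 4) summed to 9.5, 20.7 and 1.9 TPM, highest at −7 d like the cytosolic synthetases. No listed marker was at 0 in any library. The part of these shifts in the levels of the translation genes was not tested.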

How the data were processed

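The authors pooled tissue by time point and prepared DGE libraries. The tags they kept after quality filtering, called clean tags, each had at least 2 copies and were assigned to UMD 3.1 transcripts, allowing 1 mismatch. The deposited counts are unambiguous clean tags per gene, and the deposited TPM values are these counts per 1000000 clean tags (differing from a recalculation by at most 0.005 TPM). The 3 gene tables were joined by accession, and genes missing from a table were set to 0 tags. The authors' mapping summary, not used here, counts more genes than the tables list, so a gene at 0 may have had tags.

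The 75 genes, lists and tests were chosen with earlier results of these data known. Genes are named when called in any comparison, when among the 3 most abundant of a role (regulators and other roles left out), or when called in a partner list. EIF3G, EIF3I, NARS, EIF4EBP1, the ratios of factors and those genes named as not called that are less abundant fall outside this rule. They were chosen after their values were seen.

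For the Audic-Claverie test the smaller tail was doubled, with Benjamini-Hochberg adjustment over 8967, 8784 and 8988 genes in stage I, stage II and the whole interval, with 0 TPM set to 0.01 TPM in ratios. Ratios of a gene between libraries and of 2 genes within a library have exact binomial 95% intervals. Differences of such pair ratios between libraries have conditional odds ratio intervals, and summed levels have Wilson intervals, both at 95%. The test was tested on simulated data, of which no result is given here. Alternatives were edgeR TMM, DESeq2 size factors, totals without the 5 milk genes, the exact test of edgeR at an assumed variation (CV) of 0.2, Fisher's exact test, a minimum mean of 5 TPM, a 3-fold threshold and 0.5 tags added. Promoter and protein sequences were not analysed here. Tools were Python 3.11.15 (numpy 2.4.6, scipy 1.17.1, pandas 2.3.3, matplotlib 3.10.9) and R 4.3.3 (edgeR 4.0.16, DESeq2 1.42.0).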

Additional observations from a re-analysis of the deposited data

How the results depend on the processing

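Among the 75 genes, 1 was called higher and 3 lower in stage I, 12 lower in stage II and 18 lower over the whole interval. With edgeR TMM scaling, 3 were higher and 1 lower in stage I, 4 were lower in stage II, and 7 were called over the whole interval, 3 higher and 4 lower. DESeq2's size factors gave 3 higher and 1 lower, 3 lower, and 7 calls (3 higher and 4 lower). Totals without the genes over 1% of a library gave 3 higher and 2 lower in stage I, 4 lower in stage II, and 8 calls over the whole interval (1 higher and 7 lower). The exact test of edgeR, taking pools to vary by a coefficient of 0.2, called 0 genes in stage I, 0 in stage II and 1, lower, over the whole interval. A 3-fold threshold left 1 lower and 0 higher in stage I, 0 in stage II and 6 lower over the whole interval. Fisher's exact test, 0.5 tags added and a floor of 5 TPM on the mean kept every count within 1.5 times. Shares over all genes are given for clean tag totals and TMM scaling only. Counts under the other settings therefore cannot be set against all genes. Rescaling could not have reversed the direction of a call. A call needs a log2 ratio of at least 1 in size, and the rescalings shifted ratios by at most 0.52. Leaving out a replicate was not possible with 1 library per time point. No paired analysis was possible because each group has 1 pooled library. Depth limits genes with few tags, and 5 of the 75 had 3 tags or fewer in a library.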
